A study of Homo sapiens with 20 samples.

Results

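The response of *ADAR*-deficient A549 cells to interferon-β (IFN-β) was read from 4 of the 20 RNA-seq libraries of the series. A549 is a lung adenocarcinoma cell line. The members were chosen by their labels: 2 libraries from cells with an sgRNA against *ADAR* (sgRNA 1 and sgRNA 2) given IFN-β at 10 ng/mL for 24 h, and 2 from the same 2 cell populations given vehicle, which was sterile water. These are the *ADAR* KO cells below, and control cells carried sgRNA 1 or sgRNA 2 against GFP, a gene that human cells lack, and were given IFN-β or vehicle in the same way (4 libraries). All 4 populations had been transduced with a lentivirus carrying Cas9 and the sgRNA and kept under drug selection. They are transduced populations, in which an edited allele can still be transcribed. The comparison addresses which genes A549 cells, a line that grows without ADAR, turned up or down when the interferon signal was supplied from outside. Each condition was measured once per sgRNA (n = 2 sgRNAs), so errors and p-values cover the spread between sgRNAs and not that between repeated cultures, and an exact permutation test of 2 against 2 could not go below p = 0.333. The other 12 libraries were used only for an alternative fit.

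ADAR is the enzyme that converts adenosine to inosine in double-stranded RNA (dsRNA), and one of its forms is itself made from an interferon-stimulated gene (ISG). Type I interferon binds a receptor whose kinases activate the transcription factor complex ISGF3, and this binds the interferon-stimulated response element (ISRE) of the ISGs. Many ISGs encode sensors of dsRNA. RIG-I and MDA5 signal through MAVS to NF-κB and to the interferon genes themselves, OAS enzymes activate the nuclease RNase L, and the kinase PKR (*EIF2AK2*) blocks translation by phosphorylating eIF2α, which favours translation of the transcription factor ATF4.

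The 4 *ADAR* KO libraries held between 8193589 and 19520189 reads on genes, and the deepest was the IFN-β library of sgRNA 2. Levels are given as CPM, the usual read count of a gene relative to all reads on genes in the library, scaled by the TMM method over the 8 A549 libraries. The keratin transcripts *KRT7*, *KRT8* and *KRT18* were abundant in all of them, the leukocyte markers *PTPRC*, *CD3E* and *LYZ* were at 0 in both IFN-β libraries, and the endothelial markers summed to at most 0.313 CPM. The 6 leukocyte markers summed to 3.05 to 4.15 CPM in vehicle and 8.72 to 11.5 CPM in IFN-β, nearly all of it *ITGAM*, which rose (log2 fold change 1.90). Of the 5 fibroblast markers only *COL1A1* was well above 0 (28.4 to 34.9 CPM), and it did not pass. Of the 5 epithelial markers listed, 4 were high enough to be tested. *EPCAM* was close to 0 and the level of *CDH1* is not given here, so the epithelial label is read from the keratins. On a principal component analysis of the 8 libraries, PC1 (53.8% of the variance) separated IFN-β from vehicle, and PC2 (15.8%) placed the *ADAR* KO IFN-β libraries at 19.5 and 28.5 and the control IFN-β libraries at −28.4 and −39.0.

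*ADAR* (chr1:154554171-154600489, GRCh37, minus strand) was read first because it checks the labels. Its transcript stood at 161 CPM with sgRNA 1 and 250.1 CPM with sgRNA 2 in vehicle, and at 691 and 895 CPM in IFN-β. The control cells held 436 and 437 CPM in vehicle and 1219 and 1193 CPM in IFN-β. Every *ADAR* KO library lay below both control libraries of the same treatment, and sgRNA 1 below sgRNA 2. The remaining transcript still rose with IFN-β (log2 fold change 1.95 ± 0.14 SE, adjusted p = 1.12e-12), and the difference from the rise of the control cells did not pass (0.48 ± 0.19, adjusted p = 0.145). That difference depended on single libraries. It was 0.84 without the vehicle library of sgRNA 2 (adjusted p = 0.00361) and 0.21 without that of sgRNA 1 (adjusted p = 0.653), and it also passed without the IFN-β library of sgRNA 1, without the expression filter and with the sgRNA as a block. RNA counts do not show how much ADAR protein was left.

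Of 15449 genes tested, 2391 rose (15.5%) and 1397 fell (9.04%) with IFN-β in *ADAR* KO cells at an adjusted p under 0.05 (edgeR quasi-likelihood test, Benjamini-Hochberg). In control cells 678 rose (4.39%) and 202 fell (1.31%). These shares of all tested genes are the reference for the counts of gene list members below. The change differed between *ADAR* KO and control cells, by the interaction term of the fit, for 629 genes in the upward direction (4.07%) and 151 in the downward direction (0.977%). Those counts depended on single libraries. Leaving out the *ADAR* KO IFN-β library of sgRNA 2 left 1342 rises and 432 falls in *ADAR* KO cells, leaving out the vehicle library of sgRNA 1 left 1715 and 685, and leaving out that of sgRNA 2 left 1584 and 570. For the interaction, the same 3 omissions left 235, 390 and 374 upward and 18, 52 and 44 downward calls. Without the *ADAR* KO IFN-β library of sgRNA 1, 264 downward calls were made. Without the control IFN-β library of sgRNA 1, the interaction gave 1049 and 614 calls. The control vehicle libraries also mattered: without sgRNA 2 it gave 306 and 20 and without sgRNA 1 it gave 89 downward calls. In control cells alone, leaving out the vehicle library of sgRNA 2 left 447 rises and 70 falls, leaving out that of sgRNA 1 left 118 falls, and leaving out the IFN-β library of sgRNA 1 gave 399 falls.

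The rises were larger than the falls. The median log2 fold change of the 2391 genes that rose was 0.81, against 0.20 for the same genes in control cells, and 896 of them at least doubled, 343 rose 4-fold or more and 114 rose 16-fold or more. The 1397 genes that fell had a median of −0.50, against −0.13 in control cells, and only 148 of them dropped to 0.5 of their vehicle level or lower. The median over all tested genes was −0.0032. Among the 2391 genes, 566 also rose in control cells (23.7% of the *ADAR* KO rises and 83.5% of the control rises). Another 112 genes rose in control cells and did not pass in *ADAR* KO cells. Among the 1397 genes that fell, 126 also fell in control cells (9.02% of the *ADAR* KO falls and 62.4% of the control falls). The change was larger in sgRNA 2 than in sgRNA 1 for 1689 of the genes that rose, with median log2 ratios of 0.89 and 0.70, and for 1036 of those that fell.

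**Figure D1:**
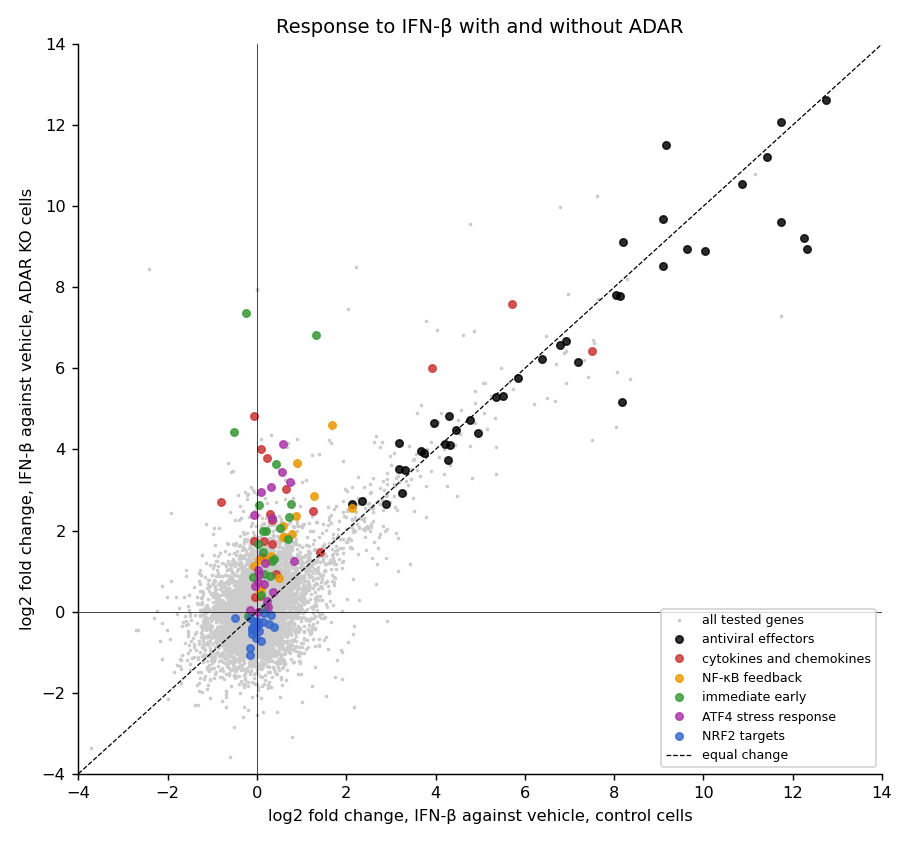
Fitted log2 fold change of each tested gene with IFN-β in control cells (horizontal) and in *ADAR* KO cells (vertical), with 6 gene lists coloured and a dashed line of equal change. Antiviral effectors lie along the line, with a median of 5.54 in *ADAR* KO and 6.12 in control cells, while cytokines, immediate early and ATF4 stress genes lie above it near 0 on the control axis; fitted values of genes with no vehicle reads have no upper limit.

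Classical ISGs rose in *ADAR* KO cells with IFN-β as they did in control cells. All 40 antiviral effectors tested rose in both kinds of cells, and all 17 genes of antigen presentation rose in both. *IFIT1*, which binds foreign RNA ends, stood at 1.71 and 1.93 CPM in vehicle and at 967 and 855 CPM in IFN-β. *MX1*, a GTPase that restricts viruses, went from 0.732 and 0.407 to 883 and 813 CPM. *ISG15*, a ubiquitin-like modifier, went from 7.80 and 8.34 to 603 and 549.9 CPM. The IFN-β libraries lay above both vehicle libraries for these 3 genes, as they did for 33.3% of all tested genes, and both sgRNAs gave similar levels. Several genes had no vehicle read in either *ADAR* KO library, so that their rise is a lower bound, set against 3 reads over both vehicle libraries. *XAF1*, an interferon-induced antagonist of the apoptosis inhibitor XIAP, was at least 396-fold higher, *IFI44L* at least 265-fold and *IFITM1*, a membrane protein that hinders viral entry, at least 176-fold. *OAS2* had 3 or fewer vehicle reads, and its ratio was 4356 (95% exact counting interval 1206 to 35975). Among the antigen presentation genes, *HLA-B* rose from 17.1 and 14.3 to 286 and 286 CPM, the peptide transporter gene *TAP1* from 38.2 and 37.2 to 366 and 331 CPM and *B2M*, the class I light chain, from 154 and 147 to 919 and 852 CPM. *HLA-B* shares sequence with other class I genes, so its count is uncertain. The median log2 fold change of the antigen presentation list was 2.56 in *ADAR* KO and 2.73 in control cells.

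The dsRNA sensors belonged to the shared response. Of 12 tested, 11 rose and 1 fell, in both kinds of cells. *IFIH1*, which encodes MDA5, stood at 1.59 and 0.610 CPM in vehicle and 216 and 234 CPM in IFN-β, a log2 fold change of 7.72 ± 0.20. *RIGI* rose from 17.6 and 21.0 to 879 and 1045 CPM. *EIF2AK2* rose from 105 and 102 to 594 and 617 CPM, and its log2 fold change of 2.55 ± 0.11 (adjusted p = 1.68e-18) stood beside 2.53 in control cells (difference 0.03 ± 0.14). The adaptor gene *MAVS* went the other way, from 362 and 353 to 286 and 271 CPM (log2 fold change −0.36 ± 0.09, adjusted p = 0.00456). The *MAVS* call was lost without the IFN-β library of sgRNA 2 or the vehicle library of sgRNA 1 (adjusted p = 0.0593 and 0.0748). *ZBP1*, a sensor of left-handed dsRNA, had too few reads to be tested.

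Signal transducers behaved likewise. Of 7 genes for the receptor, its kinases and ISGF3, 4 rose, among them *STAT2* from 29.3 and 29.5 to 378 and 419 CPM, while *IFNAR1*, *TYK2* and *JAK1* did not pass. Of 6 interferon regulatory factors tested, 3 rose. *IRF7*, the master factor for interferon gene transcription, went from 4.88 and 5.49 to 137 and 126 CPM, and *IRF1* from 15.2 and 19 to 169 and 199 CPM. Of 8 negative regulators, 5 rose (3 without the IFN-β library of sgRNA 2, without the vehicle library of sgRNA 1 or with all 20 libraries). *USP18*, which removes ISG15 and blocks the receptor, stood at 7.56 and 7.12 CPM in vehicle and 155 and 150.4 CPM in IFN-β. For these genes the interaction did not pass. *SOCS3*, an inhibitor of JAK kinases, was the exception among the 8, rising from 60.0 and 62.1 to 219 and 276 CPM in *ADAR* KO cells and from 61.8 and 63.1 to 83.6 and 89.0 CPM in control cells (difference in log2 fold change 1.55 ± 0.16, adjusted p = 9.54e-08).

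A few ISGs rose less in *ADAR* KO than in control cells. There were 9 genes that passed in both kinds of cells with a negative interaction, among them *PARP10* (log2 fold change 5.78 in *ADAR* KO and 7.42 in control cells), *ISG15* (6.15 and 7.19), *OAS1* (4.5 and 5.15) and the immunoproteasome gene *PSMB9* (3.10 and 3.78). Each of these 4 differences was lost when 1 of several libraries was left out, the *ADAR* KO IFN-β library of sgRNA 2 and the vehicle library of sgRNA 2 in every case, and the adjusted p then reached 0.196 for *PARP10*, 0.0884 for *ISG15* and 0.190 for *OAS1*.

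The ISRE was searched in the promoters. The sequences below are RefSeq promoter sequence (GRCh38.p14) written 5′ to 3′ on the gene's strand, and are shown as ISRE examples from interferon-inducible genes that rose in both kinds of cells, *ISG15* by less and *CD274* by more in *ADAR* KO cells. Capitals mark ISRE matches, searched on both strands as GAAANNGAAA, and neighbouring matches can overlap and then run together. *IFIT1* lies at chr10:89392487-89392549 (plus strand), *ISG15* at chr1:1013364-1013419 (plus strand), and *CD274*, the gene for the checkpoint ligand PD-L1, at chr9:5450314-5450369 (plus strand).
IFIT1: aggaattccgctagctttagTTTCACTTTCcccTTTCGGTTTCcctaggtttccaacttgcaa
ISG15: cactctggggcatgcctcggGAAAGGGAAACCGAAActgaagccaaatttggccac
CD274: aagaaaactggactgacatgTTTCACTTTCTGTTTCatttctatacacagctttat
Each stretch held 2 matches. The window searched reached from 250 bases before to 50 bases after the start. An ISRE lay in 21.5% of the 354 promoters of protein-coding genes that rose in both kinds of cells without a called difference, and in 24 of the 33 antiviral effectors with a promoter sequence. Among the dsRNA sensors it lay in 4 of 8 promoters, and among the interferon regulatory factors in 0 of 3. It lay in 2.86% of the 489 promoters of genes that rose with a positive interaction, in 1.20% of the 1003 of genes that fell, in 2.77% of the 9992 promoters of tested protein-coding genes and in 3.65% of all 27305 promoters. A match is a string of letters and no proof of binding, and a promoter without one says nothing about the factor.

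**Figure D2:**
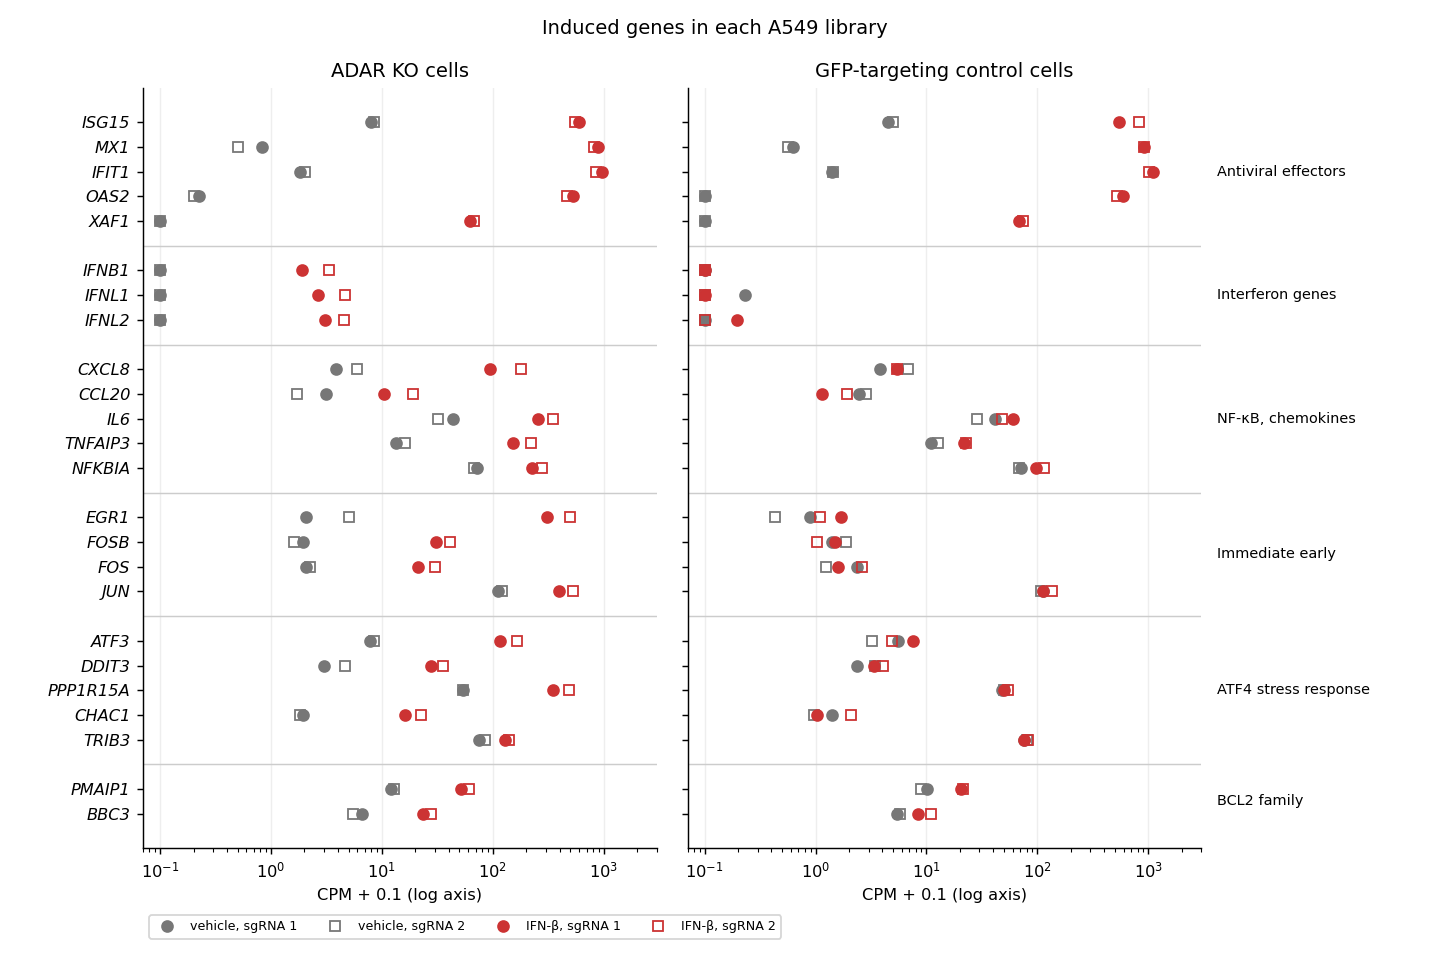
Level of 24 induced genes in each of the 8 A549 libraries, in CPM with a small constant added so that 0 can be drawn on the log axis, *ADAR* KO cells on the left and control cells on the right. Antiviral effectors move alike in both panels, whereas *CXCL8*, *EGR1*, *FOSB*, *ATF3* and *PPP1R15A* separate IFN-β from vehicle in the left panel and lie much closer together in the right one.

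With IFN-β the *ADAR* KO cells transcribed interferon genes of their own. All 4 that could be tested, *IFNB1*, *IFNL1*, *IFNL2* and *IFNL3*, rose, and none of them had a read in either *ADAR* KO vehicle library. These 4 genes passed the expression filter only through the *ADAR* KO IFN-β libraries. The direction of their change was therefore set by the filter, and the count of 4 is no separate result. *IFNB1* (chr9:21077103-21077941, GRCh37, minus strand) stood at 1.79 CPM with sgRNA 1 and 3.23 CPM with sgRNA 2 in IFN-β, which was 79 reads together and at least 16.5-fold above the vehicle floor. *IFNL1*, a type III interferon, stood at 2.52 and 4.58 CPM (112 reads, at least 23.4-fold), and *IFNL2* at 2.94 and 4.48 CPM (114 reads, at least 23.9-fold). *IFNL3* stood at 1.58 and 3.33 CPM, and is nearly identical to *IFNL2*, so reads could be split between them. In control cells *IFNB1* was at 0 in all 4 libraries, *IFNL1* was at 0.132 CPM in 1 vehicle library and *IFNL2* at 0.0938 CPM in 1 IFN-β library. For *IFNB1*, *IFNL2* and *IFNL3*, which had no vehicle read in either kind of cells, the difference in response between *ADAR* KO and control cells could not be estimated, and no p-value is given for it. For *IFNL1*, whose control cells held that 1 vehicle value, the difference did not pass, and it passed without the expression filter and with the sgRNA as a block. DESeq2 gave no adjusted p for any of the 4 genes. The other 5 interferon genes listed were too low to test.

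Cytokines and NF-κB targets rose in *ADAR* KO cells, and many of them by more than in control cells. All 19 cytokines and chemokines tested rose in *ADAR* KO cells and 6 rose in control cells, beside 15.5% and 4.39% of all tested genes. The medians were 2.40 and 0.29 on the log2 scale, and the interaction passed for 11 of them. Of the 19, 1 had no read in either *ADAR* KO vehicle library. A member that passed the expression filter only through the *ADAR* KO IFN-β libraries could only rise, so the count of 19 may be partly set by the filter. *CXCL8* (chr4:74606236-74609433, GRCh37, plus strand), the gene for the neutrophil attractant IL-8, stood at 3.78 and 5.90 CPM in vehicle and at 95.0 and 180.2 CPM in IFN-β. Control cells held 3.69 and 6.77 CPM in vehicle and 5.35 and 5.34 CPM in IFN-β. The log2 fold change was 4.82 ± 0.25 in *ADAR* KO cells (adjusted p = 7.03e-16) and differed from that of control cells by 4.88 ± 0.40 (adjusted p = 2.31e-09). *IL6*, an inflammatory cytokine, went from 43.7 and 31.6 to 255 and 348 CPM. *CCL20* rose from 3.05 and 1.63 to 10.4 and 18.9 CPM, *CXCL1* from 29.6 and 30.3 to 81.0 and 118 CPM and *IL11* from 222 and 232 to 606 and 907 CPM. In each of these 5 genes the IFN-β library of sgRNA 2 was the higher of the pair. Both lay above both vehicle libraries, as they did for 33.3% of all tested genes. *CXCL10*, a chemokine that is an ISG in many cells, did not reach the level required for testing, at 0.631 and 0.729 CPM in IFN-β and 0 in vehicle, which was at least 4.19-fold higher.

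All 16 NF-κB feedback genes tested rose in *ADAR* KO cells and 8 rose in control cells, with medians of 1.85 and 0.58, and the interaction passed for 12 (7 with all 20 libraries). *TNFAIP3* encodes A20, a ubiquitin-editing inhibitor of NF-κB signalling. It went from 13.4 and 15.9 to 151 and 221 CPM in *ADAR* KO cells and from 10.8 and 12.6 to 21.9 and 22.4 CPM in control cells (difference 2.77 ± 0.24). *TRAF1*, an adaptor of TNF receptors, went from 10.2 and 11.4 to 207 and 316 CPM, and *BIRC3*, an inhibitor of apoptosis, from 74.9 and 77.7 to 446 and 660.1 CPM. *NFKBIA*, the inhibitor that NF-κB induces against itself, went from 72.4 and 67.2 to 226 and 275 CPM. These genes rose in control cells too, but by less, with log2 fold changes of 1.68 for *TRAF1*, 1.27 for *BIRC3* and 0.62 for *NFKBIA*. Leaving out any 1 library kept 17 to 19 of the cytokines and 14 to 16 of the NF-κB genes past the threshold in *ADAR* KO cells.

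Promoters of 5 of these genes are shown because they are targets through which NF-κB is usually read, with matches to GGGANNTTCC (both strands, overlapping matches run together) in capitals. They lie at chr9:21077979-21078028 (minus strand) for *IFNB1*, chr7:22727107-22727156 (plus) for *IL6*, chr6:137867172-137867221 (plus) for *TNFAIP3*, chr14:35404801-35404850 (minus) for *NFKBIA* and chr4:73869294-73869344 (plus) for *CXCL1*, all in GRCh38.p14.
IFNB1: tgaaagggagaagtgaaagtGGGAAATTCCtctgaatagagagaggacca
IL6: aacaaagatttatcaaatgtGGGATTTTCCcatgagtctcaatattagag
TNFAIP3: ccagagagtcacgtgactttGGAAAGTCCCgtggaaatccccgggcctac
NFKBIA: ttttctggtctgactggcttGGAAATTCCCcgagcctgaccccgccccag
CXCL1: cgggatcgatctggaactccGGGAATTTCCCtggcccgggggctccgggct
Such a match lay in 6 of the 13 cytokine promoters and 5 of the 14 NF-κB feedback promoters in the table. It lay in 3.89% of the promoters of genes with a positive interaction, 3.39% of those that rose alike in both kinds of cells, 0.897% of those that fell, 1.59% of those of tested protein-coding genes and 1.63% of all promoters.

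Immediate early genes, which encode transcription factors that growth factor and stress kinases switch on within minutes, were high 24 h after IFN-β in *ADAR* KO cells. Of 21 tested, 19 rose in *ADAR* KO cells and 3 in control cells, beside 15.5% and 4.39% of all tested genes. The medians were 1.79 and 0.19, and the interaction passed for 16 (10 with all 20 libraries). Of the 21, 1 had no read in either *ADAR* KO vehicle library, so its rise may have been set by the filter. *EGR1* (chr5:137801168-137804992, GRCh37, plus strand) showed the largest positive interaction among the protein-coding genes that met the naming rule. It stood at 1.95 and 4.98 CPM in vehicle and 309 and 498 CPM in IFN-β, against 0.792 and 0.332 CPM and then 1.59 and 0.994 CPM in control cells (difference 5.49 ± 0.99, adjusted p = 0.000595). *FOSB* went from 1.83 and 1.53 to 30.9 and 40.8 CPM, and *FOS* from 1.95 and 2.14 to 21.1 and 30.1 CPM. *JUN*, their partner in AP-1, went from 110.5 and 121 to 391 and 533 CPM. In control cells the vehicle and IFN-β values of *FOS* and *FOSB* were mixed. *MYC* rose by less, from 215 and 222 to 371 and 430.4 CPM (log2 fold change 0.88 ± 0.10), and *SRF* and *IER5* did not pass.

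The phosphatases and RNA-binding proteins that shut these genes off were high as well. Of 17 feedback genes of MAP kinases and mRNA decay, 15 rose in *ADAR* KO cells and 4 in control cells, and the interaction passed for 10 (6 without the *ADAR* KO IFN-β library of sgRNA 2 and 6 with all 20 libraries). *DUSP8*, a phosphatase of JNK and p38, went from 1.95 and 2.95 to 21.3 and 33.3 CPM, *DUSP1* from 384 and 407 to 904 and 1092 CPM and *ZFP36*, which destabilises cytokine mRNAs, from 36.5 and 33.4 to 76.3 and 86.5 CPM. Among 9 ligands for growth factor receptors, 8 rose in *ADAR* KO cells and 1 in control cells. *HBEGF*, a ligand of EGFR, went from 13.7 and 10.2 to 43.3 and 60.4 CPM, and *EREG* from 153 and 148 to 343 and 458 CPM. The interaction passed for 7 of the 9, for 4 without the control vehicle library of sgRNA 2 and for 3 with all 20 libraries.

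The *EGR1* and *CXCL8* promoters are given for their textbook elements (GRCh38.p14). *EGR1* (chr5:138465354-138465425, plus strand) held 2 CArG boxes, the element bound by SRF, and *CXCL8* (chr4:73740412-73740458, plus strand) held 1 AP-1 match, searched on both strands as TGANTCA. Capitals mark them.
EGR1: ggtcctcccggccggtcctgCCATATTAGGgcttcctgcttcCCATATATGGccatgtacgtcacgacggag
CXCL8: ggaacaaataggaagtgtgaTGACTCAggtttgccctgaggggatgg
CArG boxes lay in 2 of the 16 immediate early promoters and in 1.02% of those of tested protein-coding genes. AP-1 matches lay in 7.36% of the promoters with a positive interaction, 6.78% of those that rose alike in both kinds of cells, 3.59% of those that fell and 4.42% of those of tested protein-coding genes, but in 7.76% of all promoters in the table.

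The ATF4 stress genes rose in *ADAR* KO cells and hardly moved in control cells. Of 19 tested, 16 rose in *ADAR* KO cells and 2 in control cells, with medians of 1.03 and 0.17, and the interaction passed for 13 (7 with all 20 libraries). *ATF3* (chr1:212738676-212794119, GRCh37, plus strand), a repressor induced by many stresses, stood at 7.68 and 8.44 CPM in vehicle and at 115 and 167 CPM in IFN-β. Control cells held 5.41 and 3.12 CPM and then 7.41 and 4.78 CPM (difference 3.55 ± 0.35, adjusted p = 3.94e-08). *DDIT3*, which encodes the pro-apoptotic factor CHOP, went from 2.93 and 4.58 to 27.9 and 35.6 CPM (log2 fold change 3.07 ± 0.25). *PPP1R15A*, whose product GADD34 brings a phosphatase to eIF2α, went from 53.9 and 53.6 to 345 and 483 CPM, with 47.8 to 54.8 CPM in the 4 control libraries (difference 2.86 ± 0.18, adjusted p = 8.87e-12). *CHAC1*, which degrades glutathione, went from 1.83 and 1.73 to 16 and 22.3 CPM, and *SESN2*, an inhibitor of mTORC1, from 9.02 and 9.76 to 40.6 and 56.5 CPM. *ATF5* and *NUPR1* did not pass. *ATF4* itself, which is controlled mainly at translation, stood at 289.6 and 298 CPM in vehicle and 359 and 349 CPM in IFN-β (log2 fold change 0.27 ± 0.10, adjusted p = 0.0375). That call was lost on leaving out any of the 4 *ADAR* KO libraries or either control vehicle library, with an adjusted p of 0.0598 to 0.211. With 1 library left out, 14 to 16 of the 19 stress genes still passed.

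Other arms of the stress responses moved less. Among all tested genes, 15.5% rose and 9.04% fell in *ADAR* KO cells and 4.39% rose in control cells. Those shares are the reference for the lists of this paragraph. Of 25 genes for amino acid supply, which include many ATF4 targets, 6 rose and 1 fell, and 1 of the 6 rises was left without the IFN-β library of sgRNA 2, without the vehicle library of sgRNA 1 or with all 20 libraries. *ASNS*, asparagine synthetase, went from 91.2 and 109.95 to 137 and 170.3 CPM (log2 fold change 0.61 ± 0.12, adjusted p = 0.000212), *PYCR1*, a proline synthesis enzyme, fell by 0.53 on the log2 scale, and *PHGDH*, *PSAT1* and the cystine transporter gene *SLC7A11* did not pass. Of 16 ER chaperone genes, 0 rose in *ADAR* KO cells by edgeR (1 at an unadjusted p under 0.05, and 0 by DESeq2) and 5 rose in control cells. *HSPA5*, the main ER chaperone, stood at 639 and 624 CPM in vehicle and 783 and 692 CPM in IFN-β (log2 fold change 0.22 ± 0.10, adjusted p = 0.0979), with 0.53 in control cells, and this difference did not pass (−0.30 ± 0.14, adjusted p = 0.225).

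ATF4-type matches (TGATGNAA) and CRE matches (TGACGTCA, the site of ATF and CREB factors) are shown for 4 of these genes, on both strands, with the match in capitals (GRCh38.p14). *ATF3* lies at chr1:212565196-212565243 (plus strand), *CHAC1* at chr15:40953242-40953289 (plus), *ASNS* at chr7:97872449-97872496 (minus) and *PPP1R15A*, which holds the CRE, at chr19:48872343-48872390 (plus).
ATF3: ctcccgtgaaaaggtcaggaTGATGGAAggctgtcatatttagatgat
CHAC1: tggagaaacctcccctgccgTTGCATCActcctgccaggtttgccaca
ASNS: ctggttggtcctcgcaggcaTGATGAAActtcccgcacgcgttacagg
PPP1R15A: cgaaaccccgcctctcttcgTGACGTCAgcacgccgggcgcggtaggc
An ATF4-type match lay in 4 of the 17 ATF4 stress promoters and 8 of the 20 amino acid supply promoters, although few of the latter genes rose. It lay in 2.66% of the promoters with a positive interaction, 0.565% of those that rose alike in both kinds of cells, 1.58% of those of tested protein-coding genes and 3.67% of all promoters. CRE matches lay in 5.73%, 2.54%, 3.35% and 1.98% of the same 4 sets.

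**Figure D3:**
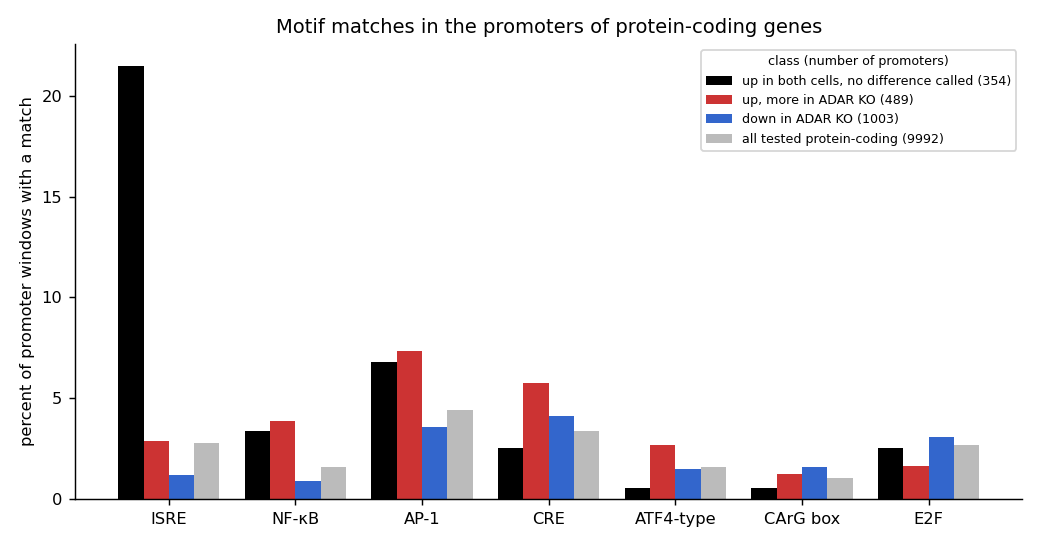
Percent of promoter windows of protein-coding genes that hold a match to each of 7 motifs, for genes that rose alike in both kinds of cells, genes that rose more in *ADAR* KO cells, genes that fell in *ADAR* KO cells and all tested genes. The ISRE stands out in the first class (21.5% against 2.77% of all tested), and no other bar of the plot exceeds 7.36%.

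Some genes of cell death rose. In the BCL2 family, 5 of 13 tested genes rose and 1 fell, beside 15.5% up and 9.04% down among all tested genes. *PMAIP1*, which encodes the BH3-only protein NOXA, went from 12 and 12.7 to 51.6 and 61.1 CPM (log2 fold change 2.19 ± 0.16), and *BBC3*, which encodes PUMA, from 6.46 and 5.39 to 23.5 and 27.4 CPM (2.11 ± 0.22). *MCL1*, their pro-survival partner, rose at the same time from 178 and 185 to 434 and 552 CPM (1.44 ± 0.11). These 3 also rose in control cells, by 1.16, 0.82 and 0.66 on the log2 scale, and the interaction passed for each (1.04, 1.30 and 0.78). Without the *ADAR* KO IFN-β library of sgRNA 2 the interaction was lost for *PMAIP1* (adjusted p = 0.110), and for *BBC3* it was lost without that library, the *ADAR* KO vehicle library of sgRNA 2 or the control vehicle library of sgRNA 2 (0.0938 to 0.120). *BAX*, an executor of mitochondrial permeabilisation, went from 119 and 104 to 95.6 and 72.5 CPM (adjusted p = 0.0118, lost at 0.196 to 0.336 without the IFN-β library of sgRNA 2 or the vehicle library of sgRNA 1), and *BCL2L11* and *BAK1* did not pass.

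Of 21 death receptor, caspase and necroptosis genes, 12 rose and 1 fell in *ADAR* KO cells, and 9 rose and 1 fell in control cells. Among all tested genes, 15.5% rose and 9.04% fell in *ADAR* KO cells, and 4.39% rose and 1.31% fell in control cells. *TNFRSF10B*, the TRAIL receptor DR5, rose from 154 and 136 to 256 and 317 CPM, with 132 to 153 CPM in control cells, and was the 1 gene of the list with a positive interaction (0.83 ± 0.15, adjusted p = 0.000714). *GSDMD*, a pore-forming protein, went from 6.34 and 6.81 to 28.7 and 27.8 CPM and *MLKL*, the effector of necroptosis, from 36.7 and 37.6 to 86.7 and 91.3 CPM, both with similar rises in control cells (2.48 and 1.12 on the log2 scale). The decoy receptor gene *TNFRSF10D* fell from 41.5 and 40.4 to 15.4 and 21.6 CPM, and it fell in control cells too (−1.42). *RIPK3*, which activates MLKL, was at 0, and *FAS* did not pass. Of 15 targets of p53, 3 rose, 3 fell and 9 did not pass, beside 15.5% up and 9.04% down among all tested genes. Among the p53 targets that did not pass was *CDKN1A*, the cell cycle inhibitor p21. It stood at 92.0 and 79.1 CPM in vehicle and 108 and 86.2 CPM in IFN-β (adjusted p = 0.313). The counts of p53 targets depended on single libraries, and with all 20 libraries 1 fall was left.

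Some genes for surface proteins rose. *CD274* rose from 3.78 and 4.27 to 65.6 and 80.5 CPM in *ADAR* KO cells and from 3.43 and 3.59 to 25.7 and 18.3 CPM in control cells (difference 1.55 ± 0.32, adjusted p = 0.00248, and 0.0581 without the control vehicle library of sgRNA 2). Of 13 immune ligands, 7 rose in *ADAR* KO and 5 in control cells. Among 24 genes of epithelial adhesion and matrix, 12 rose in *ADAR* KO and 3 in control cells, and 6 of the *ADAR* KO rises were left with all 20 libraries. *CLDN1*, a tight junction protein, went from 85.7 and 71.8 to 209 and 293 CPM with 77.2 to 101 CPM in control cells (difference 1.58 ± 0.19), and *VIM* and *KRT8* did not pass. Of 15 secreted acute phase genes, 10 rose and 1 fell in *ADAR* KO cells and 10 rose in control cells, and the interaction passed for 2 upward and 1 downward.

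**Figure D4:**
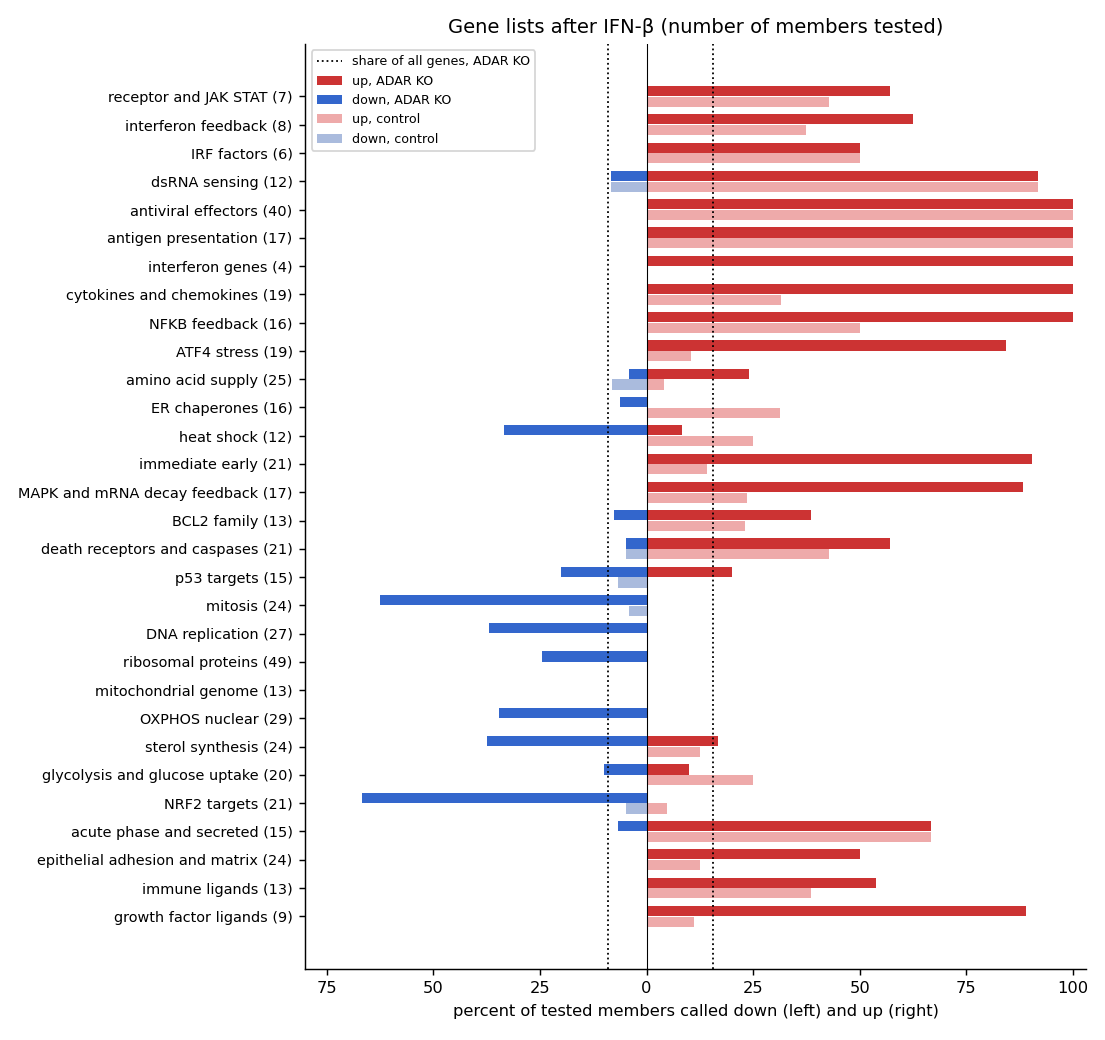
Percent of the tested members of 30 gene lists called up (right) and down (left) with IFN-β, in *ADAR* KO cells (dark bars) and control cells (pale bars), with the number tested after each name and dotted lines at the shares of all tested genes in *ADAR* KO cells (15.5% up and 9.04% down). Antiviral effectors and antigen presentation reach 100% in both kinds of cells, whereas NRF2 targets and mitosis reach the left furthest, with 14 of 21 and 15 of 24 members down in *ADAR* KO cells.

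The protein-coding genes that fell were higher to begin with and shorter than those that rose. Their median vehicle level was 67.3 CPM against 27.7 CPM. The median exon length was 4676 against 6337 bases, and the median span 24.1 against 43.2 kb. Over all tested protein-coding genes the medians were 27.4 CPM, 5498 bases and 33.9 kb. The part of transcript length and level in these calls was not tested. The largest fall among protein-coding genes at 5 CPM or more in the higher group, without overlap between the groups, was that of *CASTOR2* (chr7:74378873-74445631, GRCh37, plus strand), a relative of the arginine sensor of mTORC1, from 16.2 and 12.1 to 2.94 and 2.76 CPM (log2 fold change −2.31 ± 0.25, adjusted p = 2.15e-08). *CASTOR2* also fell in control cells (−1.38). *NT5DC2* (chr3:52558401-52569070, GRCh37, minus strand), a nucleotidase-like protein, fell from 95.0 and 96.4 to 35.3 and 27.0 CPM (−1.64 ± 0.13, and −0.96 in control cells), and it was the 1 gene that fell in both kinds of cells and fell more in *ADAR* KO cells (−0.68, adjusted p = 0.0267). This difference was lost without any of 5 libraries, among them the *ADAR* KO IFN-β library of sgRNA 2 and both *ADAR* KO vehicle libraries (adjusted p = 0.0822 to 0.325). *GYG2*, a glycogen primer, fell from 12 and 14.4 to 3.78 and 4.90 CPM, and *SLC40A1*, the iron exporter ferroportin, from 5.73 and 4.27 to 2.10 and 1.41 CPM (adjusted p = 0.00165, and 0.0708 without the IFN-β library of sgRNA 2). The histone gene *H4C13* fell from 40.2 and 42.1 to 14.7 and 17.4 CPM and by more in control cells (−1.35 and −1.72), a difference that did not pass. Histone H4 genes are nearly identical copies, so its count is uncertain.

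NRF2 targets, the antioxidant genes that A549 cells keep high, were among the lists with the largest shares of falls. Of 21 tested, 14 fell in *ADAR* KO cells and 1 in control cells, and the median was −0.37 against −0.01. Among all tested genes, 9.04% fell in *ADAR* KO cells and 1.31% in control cells. Rises in *ADAR* KO cells numbered 0 by edgeR, also at an unadjusted p under 0.05, and 0 by DESeq2. *SRXN1*, sulfiredoxin, stood at 23.2 and 27.1 CPM in vehicle and 12.3 and 11.6 CPM in IFN-β (log2 fold change −1.08 ± 0.18, adjusted p = 2.92e-05), with 21.2 and 29.6 CPM in the IFN-β libraries of control cells. *AKR1C3*, a steroid and carbonyl reductase, fell from 828 and 920.2 to 512 and 434 CPM (−0.89 ± 0.10), and this fall was larger than in control cells (difference −0.74 ± 0.14, adjusted p = 0.00141). *AKR1C1* fell from 417 and 484 to 286 and 257 CPM, but the *AKR1C* genes are near-identical copies and their reads could be split. *NQO1* stood at 1086 and 1111 CPM in vehicle and 970.3 and 879 CPM in IFN-β and did not pass (adjusted p = 0.0570), and neither did *HMOX1* or *GCLM*. The count of 14 went to 7 without the IFN-β library of sgRNA 2, to 8 without the vehicle library of sgRNA 2 and to 6 with all 20 libraries. Matches to the antioxidant response element (TGACNNNGC, both strands, which can overlap AP-1) lay in 4 of the 16 NRF2 target promoters, in 14.7% of the promoters of genes that fell and in 15% of those of tested protein-coding genes.

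Some genes of the cell cycle fell in *ADAR* KO cells. Of 24 mitotic genes, 15 fell in *ADAR* KO cells and 1 in control cells, with medians of −0.35 and −0.14. Falls were more frequent in *ADAR* KO cells among all tested genes too, at 9.04% against 1.31% in control cells. *PLK1*, a mitotic kinase, stood at 234 and 245 CPM in vehicle and 156 and 133 CPM in IFN-β (−0.73 ± 0.10, adjusted p = 1.82e-06). *BIRC5*, survivin, went from 233 and 246 to 159.5 and 149.6 CPM (−0.64 ± 0.10), and *CDK1* stood at 104 and 108 and then 94.8 and 96.6 CPM and did not pass. Of 27 DNA replication genes, 10 fell in *ADAR* KO cells, and in control cells 0 fell by edgeR, at an unadjusted p under 0.05 and by DESeq2. *CCNE1*, cyclin E1, went from 40.5 and 31.8 to 19.97 and 20.2 CPM (−0.84 ± 0.16), and *PCNA*, the replication clamp, from 348 and 361 to 287 and 245 CPM (−0.42 ± 0.11). The fall of *PCNA* was lost without the IFN-β or the vehicle library of sgRNA 2 (adjusted p = 0.0580 to 0.106). Without the IFN-β library of sgRNA 2, 8 mitotic and 1 replication gene remained past the threshold, and without the vehicle library of sgRNA 2, 8 and 2. The fit of all 20 libraries left 6 and 2, and without the expression filter 6 replication genes fell. Only *PLK1* of the mitotic genes differed from control cells (−0.49, adjusted p = 0.0405), and that call was lost without any of 6 of the 8 libraries (0.0708 to 0.330). In bulk RNA, fewer dividing cells and less of these transcripts in each dividing cell cannot be told apart.

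The NF-Y box, CCAAT, is the common promoter element of mitotic genes, and 2 promoters are shown with it in capitals (both strands, GRCh38.p14): *PLK1* at chr16:23678796-23678840 (plus strand) and *CCNB1*, cyclin B1, at chr5:69167043-69167119 (plus strand).
PLK1: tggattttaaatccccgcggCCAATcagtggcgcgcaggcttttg
CCNB1: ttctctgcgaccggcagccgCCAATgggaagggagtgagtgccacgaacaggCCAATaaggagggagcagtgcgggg
The box lay in 18 of 20 mitotic promoters, but also in 14 of 15 promoters of ER chaperones, a list of which 1 member fell, and in 40.8% of the promoters of genes that fell and 36.5% of those of tested protein-coding genes. E2F matches (TTTCCCGC) lay in 7 of 23 DNA replication promoters, in 3.09% of those of genes that fell and in 2.70% of those of tested protein-coding genes.

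Most genes of translation and respiration did not pass. In the main fit, ribosomal protein genes and nuclear genes of oxidative phosphorylation fell more often than the 9.04% of all tested genes. No member of these 2 lists rose by edgeR, also at an unadjusted p under 0.05, or by DESeq2. By edgeR, 15.5% of all tested genes rose. Of 49 ribosomal protein genes, 12 fell, 37 did not pass and the median was −0.20, with *RPL23* going from 765 and 764 to 536 and 498 CPM (−0.56 ± 0.09). Of 29 nuclear genes of oxidative phosphorylation, 10 fell and 19 did not pass (median −0.23), with *CYC1*, cytochrome c1, going from 253 and 269 to 211 and 181 CPM. The *CYC1* call was lost without the IFN-β or vehicle library of sgRNA 2 (adjusted p = 0.0782 to 0.110). Both counts rested on single libraries. Ribosomal protein falls numbered 2 without the IFN-β library of sgRNA 2, 4 without the vehicle library of sgRNA 1 and 2 without that of sgRNA 2, and respiration falls numbered 0, 1 and 1, and 6 without the control vehicle library of sgRNA 2. The fit of all 20 libraries left 1 fall in each list, and without the expression filter 7 and 2 were left. Of the 13 protein-coding genes of the mitochondrial genome, 0 passed by edgeR, 0 at an unadjusted p under 0.05 and 0 by DESeq2. Without the expression filter 1 rose and 3 fell, with the sgRNA as a block 1 rose and 1 fell, and with the *ADAR* KO libraries alone 2 fell. Their median log2 fold change was −0.13. It was 0.28 without the vehicle library of sgRNA 1 and −0.35 without that of sgRNA 2.

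**Figure D5:**
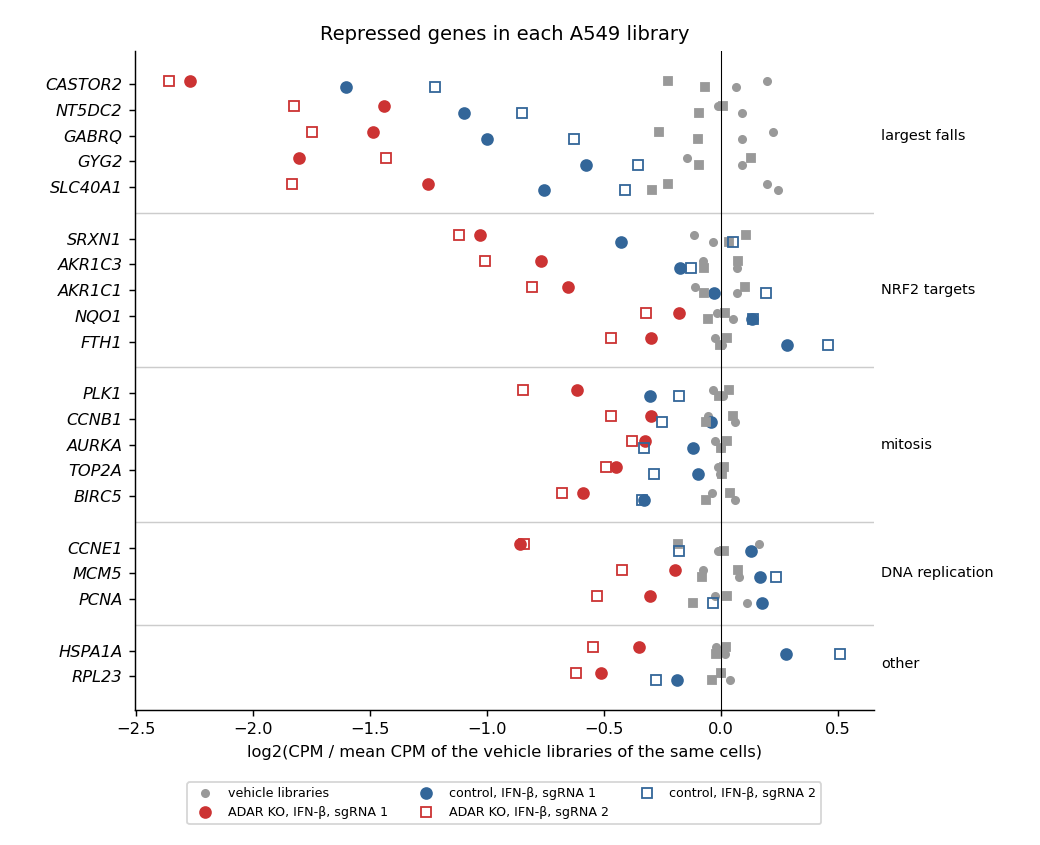
Log2 ratio of the CPM of each library to the mean of the vehicle libraries of the same cells for 20 genes, with *ADAR* KO IFN-β libraries in red, control IFN-β libraries in blue and vehicle libraries in grey. Red points lie left of the *ADAR* KO grey ones throughout (30.9% of all tested genes did so), farthest for *CASTOR2*, and *FTH1* and *HSPA1A* have blue points to the right of 0.

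Sterol genes were split. Of 24 tested, 4 rose and 9 fell in *ADAR* KO cells, and 3 rose in control cells. Among all tested genes, 15.5% rose and 9.04% fell in *ADAR* KO cells, which is the reference for this list and the glycolysis list below. *STARD4*, a sterol carrier, went from 1.83 and 1.83 to 10.8 and 8.28 CPM, with a rise in control cells as well (1.94 on the log2 scale). The 9 falls went to 4 with all 20 libraries, to 5 without the expression filter, to 2 without the IFN-β library of sgRNA 2 and to 3 and 4 without the vehicle libraries of sgRNA 1 and sgRNA 2. Of 20 glycolysis and glucose uptake genes, 2 rose and 2 fell, and neither fall was left without the IFN-β library of sgRNA 2 or either vehicle library, while 5 genes fell by DESeq2 and 7 without either control IFN-β library. *HK2*, hexokinase 2, rose from 2.07 and 2.54 to 7.67 and 6.20 CPM.

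A few genes went opposite ways in the 2 kinds of cells. There were 7 that fell in *ADAR* KO and rose in control cells, and they are named here after their values were seen. Cytosolic chaperones were among them: *HSPA1A*, an inducible HSP70, went from 115 and 118 to 91.3 and 79.7 CPM in *ADAR* KO cells and from 128 and 125 to 153 and 179.7 CPM in control cells (difference −0.85 ± 0.15, adjusted p = 0.000547). *HSPA1B* is its near-identical copy and moved alike (difference −0.89), and reads could be split between them. *FTH1*, the ferritin heavy chain, went from 611 and 633 to 506 and 449.7 CPM and, in control cells, from 513 and 509.8 to 621 and 702 CPM (difference −0.76 ± 0.14, adjusted p = 0.000693). *GADD45GIP1*, a mitochondrial ribosome subunit, *CRELD2*, an ER chaperone, *TPM2*, a tropomyosin, and a gene with no symbol (ENSG00000275215) completed the 7. The differences held for *HSPA1A*, *HSPA1B*, *FTH1* and *GADD45GIP1* with any library left out, with adjusted p-values up to 0.0112, 0.0354, 0.0112 and 0.0169. Their falls in *ADAR* KO cells were less firm: the call was lost without the IFN-β library of sgRNA 2 for *HSPA1A* (0.0819), without that or the vehicle library of sgRNA 2 for *FTH1* (0.0720 to 0.0875), without either or the vehicle library of sgRNA 1 for *HSPA1B* (0.0852 to 0.306) and without the vehicle library of sgRNA 2 for *GADD45GIP1* (0.0528). For *CRELD2* the fall was lost in 3 such fits (0.137 to 0.291). Of 12 cytosolic heat shock genes, 1 rose and 4 fell in *ADAR* KO cells, the 4 falls going to 1, 2 and 2 without the IFN-β library of sgRNA 2 and the vehicle libraries of sgRNA 1 and sgRNA 2 and to 0 with all 20 libraries, and 3 rose in control cells. In the reverse direction, *IRGQ* and *SYNPO* rose in *ADAR* KO cells (0.41 and 0.58 on the log2 scale) and fell in control cells (−0.43 and −0.34).

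Non-coding genes followed both patterns. Of 1466 long non-coding RNA genes tested, 104 rose (7.09%) and 50 fell (3.41%) in *ADAR* KO cells. Both shares were below those of all tested genes, of which 15.5% rose and 9.04% fell. The reason for these lower shares was not tested. *HCP5*, within the MHC region, went from 0.366 and 0.305 to 8.20 and 11.8 CPM and rose in control cells too (4.12 on the log2 scale, against 4.89). *CHILL1* (log2 fold change 3.20) and *HIF1A-AS3* (2.33) rose in *ADAR* KO cells and did not pass in control cells. *DANCR*, a host of small nucleolar RNAs, fell from 18.8 and 17.4 to 7.78 and 7.87 CPM, and *BCYRN1*, a small RNA of repeat origin, from 34.8 and 27.7 to 11.9 and 13.4 CPM, and both fell in control cells (−1.57 and −1.51). The strand setting of the read counting was not given, so reads of *HIF1A-AS3* and of the gene it overlaps may not have been told apart.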

How the data were processed

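RNA was extracted from A549 cells with a column kit, depleted of ribosomal RNA and sequenced from directional libraries on an Illumina instrument as paired ends. The authors aligned reads to hg19 with STAR and deposited raw HTSeq counts per gene for each library. Tool versions, the annotation release and the strand setting are not given in the sources used here. Reads outside genes (17.4% to 18.9% of uniquely placed reads in the *ADAR* KO libraries) and alignments without a unique place (39.6% to 50.8% of all entries) were left out of library sizes. Of 58233 gene identifiers, 55727 matched a symbol. Depth limits low genes most, and counting intervals cover counting error only.

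The deposited counts of the 8 A549 libraries were scaled by TMM, filtered by filterByExpr and fitted in edgeR 4.0.16 (R 4.3.3) with 4 group means. Quasi-likelihood F-tests gave p-values, adjusted by Benjamini-Hochberg over 15449 genes, with a threshold of 0.05. Contrasts were IFN-β against vehicle in *ADAR* KO cells, in control cells, and the difference (interaction). SE is the log2 fold change divided by the root of F. A gene with no vehicle read was set against a floor of 3 reads over both libraries (0.166 CPM). Scripts were tested on simulated counts. Gene positions are from GENCODE on GRCh37, promoters from RefSeq on GRCh38.p14, and 9992 of 12277 tested protein-coding genes had one. The sgRNA sequences were not used here.

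Named genes were the 15 protein-coding genes with the largest change each way, 5 non-coding genes each way and 8 with the largest interaction each way. These had a mean of 5 CPM or more in at least 1 group, and the last 8 also had to pass the interaction test. Up to 4 genes each way per list, and a short fixed set of interferon, stress and sterol genes, were named without that limit on level. A few genes that this rule names are not reported here. The members, the 34 gene and marker lists and the tests were chosen with earlier results of these data known. Alternatives were DESeq2 1.42.0, its size factors, no expression filter, *ADAR* KO libraries alone, all 20 libraries, an sgRNA block and leaving out each library. The sgRNA numbers pair libraries of the same transduced population only within *ADAR* KO or control cells, and same-sgRNA deviations correlated at −0.0048 and −0.059, so the block was not used in the values reported.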

Additional observations from a re-analysis of the deposited data

Results flagged for a closer look

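A test of the difference between *ADAR* KO and control cells (the interaction term of the edgeR fit, adjusted p under 0.05) passed for 22 named genes. They were named for the size of their change or difference or from the fixed set. For the 8 genes each way named for the largest interaction, passing this test was a condition of being named. The count of 22 is therefore partly fixed by the naming rule. The log2 differences of the 22 genes in the response to IFN-β follow (gene list members are in the report). Signalling and cytokine genes rose more in *ADAR* KO cells: *EGR1* by 5.49, *FOSB* by 4.94, *CXCL8* by 4.88, *DUSP8* by 4.01, *ATF3* by 3.55, *CCL20* by 3.50, *PPP1R15A* by 2.86, *TNFAIP3* by 2.77 and *DDIT3* by 2.74. *PTX3*, a secreted pattern recognition protein, rose more by 3.35. It stood at 0.732 and 0.509 CPM in *ADAR* KO vehicle libraries and 9.98 and 13.4 CPM in IFN-β, and at 1.5 and 0.931 CPM in the control IFN-β libraries. *FCMR*, known as the receptor for IgM, differed by 3.21, with 0.366 and 0.915 CPM in vehicle and 5.15 and 5.16 CPM in IFN-β, and 1.78 and 0.994 CPM in the control IFN-β libraries. The non-coding genes *CHILL1* and *HIF1A-AS3* differed by 2.19 and 2.50. Among these genes, *CHILL1* lost its call without any of 3 libraries (adjusted p = 0.0805 to 0.389) and *HIF1A-AS3* without either of 2 (0.0552 to 0.0657), and both lost it in the fit of all 20 libraries.

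Downward differences were smaller. They were −1.64 for *PARP10*, −1.03 for *ISG15*, −0.68 for *NT5DC2*, −1.13 for *GYG2*, −0.99 for *CRELD2*, −0.98 for *GADD45GIP1*, −1.19 for *PANX2*, a channel protein, −1.15 for *TMEM160* and −1.0 for *RAB5IF*. *PANX2* went from 12.9 and 12.5 to 7.36 and 5.99 CPM in *ADAR* KO cells and stood between 11.8 and 15.1 CPM in the 4 control libraries. *TMEM160* went from 22.3 and 25.4 to 13.9 and 13.3 CPM and stood between 20.2 and 32.7 CPM in control libraries. Except for *GADD45GIP1*, each of these 9 differences was lost on leaving out at least 1 library: 7 of 8 such fits for *GYG2*, 6 for *PARP10*, 5 for *NT5DC2* and *PANX2*, 4 for *ISG15* and *RAB5IF*, 2 for *CRELD2* and 1 for *TMEM160*. All 9 were lost in the fit of all 20 libraries, with adjusted p-values of 0.0721 (*PANX2*) to 0.461 (*PARP10*).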

How the results depend on the processing

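In *ADAR* KO cells, 2391 rises and 1397 falls became 2062 and 1291 with DESeq2, 2336 and 1475 with its size factors and 2563 and 1814 with the *ADAR* KO libraries fitted alone. Without the expression filter 915 falls passed among 34503 genes tested. The fit of all 20 libraries, which estimates 1 spread over further cell lines, gave 1432 rises and 635 falls in *ADAR* KO cells, 78 falls in control cells, and 161 upward and 3 downward interactions. With a replicate block by sgRNA the counts were 2345 and 1335 in *ADAR* KO cells, 699 and 212 in control cells and 659 and 165 for the interaction. Over all tested genes the deviations of libraries with the same sgRNA were uncorrelated, which cannot exclude pairing for single genes. *ADAR* itself was lower with sgRNA 1 than with sgRNA 2 in both treatments of *ADAR* KO cells. Leaving out 1 library at a time, so that the lone library of that group was assumed to vary like the others, gave 1342 to 2755 rises and 432 to 1817 falls in *ADAR* KO cells, 447 to 846 rises and 70 to 399 falls in control cells, and 235 to 1049 upward and 18 to 614 downward interactions. The cause of these shifts was not tested. No named or listed gene with a call changed sign under any of these settings, and no scaling moved the median of all genes by 0.1. Where shallower vehicle libraries held under 3 reads of a gene, as for the interferon genes, the depth gives a lower bound only.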
